A study of Mus musculus with 6 samples.

Results

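Endothelial cells (ECs) catch circulating leukocytes with adhesion molecules on their luminal surface, and the genes that encode them were examined here in ECs sorted from mouse tumors. The 9 genes were chosen by name, as a group whose products capture leukocytes: Icam1, Icam2, Vcam1, Sele, Selp, Madcam1, Cd34, Alcam and Glycam1. All 9 were found among the 24346 gene symbols of the files, and 7 of the 9 averaged 1 FPKM or more over the samples and entered the test, as did 10964 symbols in all. FPKM is a fragment count corrected for the length of the transcript and for the reads mapped in the sample, so that levels of different genes can be set side by side per length. Leukocytes first roll along the vessel wall on selectins, which bind sialylated and fucosylated sugars, and then arrest when their activated integrins bind immunoglobulin-like molecules such as the products of Icam1 and Vcam1. Inflammatory cytokines such as TNF and IL-1 raise Sele, Vcam1 and Icam1 in ECs through NF-kB, whereas Icam2 and Cd34 are expressed by resting ECs. Glycam1 and Madcam1 are best known from the specialised venules of lymphoid organs.

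WT C57BL/6 mice and Apelin-KO mice, which lack the peptide Apelin in the germline and had been made on the same background, carried subcutaneous tumors of MC38, a mouse colon carcinoma line. The mice were 8 to 10 weeks old, the tumors were taken at day 19, and 3 samples per genotype were compared. The WT mice were purchased and the knockout line was generated separately, so that genotype and origin of the mice cannot be told apart, and the MC38 cells themselves were not altered. The labels of all 6 samples name saline. After enzyme treatment of the tumors, cells positive for CD31 and negative for CD45 were sorted and taken as tumor ECs. The study asked whether adhesion molecules used in T-cell homing differed between ECs with and without Apelin. It measured transcripts of Cdh5, Icam1, Vcam1 and Sele in tumor ECs by qRT-PCR and reported no difference. The comparison below is that of the RNA-sequencing values.

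Between 14089 and 14621 symbols per sample had a value above 0. Read numbers are not part of the tables and were estimated, from the spacing of low values, at 8920000 to 10080000 reads per sample. Apln, the deleted gene, was 432, 435 and 504 FPKM in WT 1, 2 and 3 and 9.96, 17.5 and 24.3 FPKM in Apelin-KO 1, 2 and 3. All 15 endothelial markers checked were expressed, among them Pecam1 and Cdh5. Transcripts of other cells were present in the sort as well. The summed level of 20 hematopoietic markers was 590 to 1803 FPKM in WT and 238 to 733 FPKM in Apelin-KO samples, and that of 15 fibroblast markers was 226 to 396 FPKM and 149 to 237 FPKM. Of 14 markers of colon epithelium, the tissue of the tumor line, Cldn3 and Cdx2 were listed at 0 in all samples and 1 had a mean of at least 1 FPKM. Gapdh, which every cell uses, was itself listed at 0 to 0.433 FPKM, so that a value of 0 in these tables does not by itself show low expression. In bulk samples of this kind, fewer cells that express a gene and less RNA per cell cannot be told apart. The labels do not say that each sample was a separate mouse, and p-values measure the spread between these samples.

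Across the 7 adhesion genes tested, only Vcam1 differed at an unadjusted p under 0.05, and it was higher in WT ECs. No adhesion gene passed after adjustment: the lowest adjusted p was 0.501, for Vcam1 (limma, Benjamini-Hochberg over 10964 genes). In the same test 0.00912% of all genes tested passed at an adjusted p under 0.05, which was Apln alone, and 9.42% passed at an unadjusted p under 0.05. Vcam1 was also the only 1 of the 9 genes whose genotypes did not overlap. That occurred for 6.61% of the genes tested in the direction of WT and for 7.77% in the direction of Apelin-KO. A single gene among 7 or 9 is not far from these shares. The median log2 fold change, WT minus Apelin-KO, was 0.03 for the 7 adhesion genes and -0.01 for all genes tested.

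**Figure D1:**
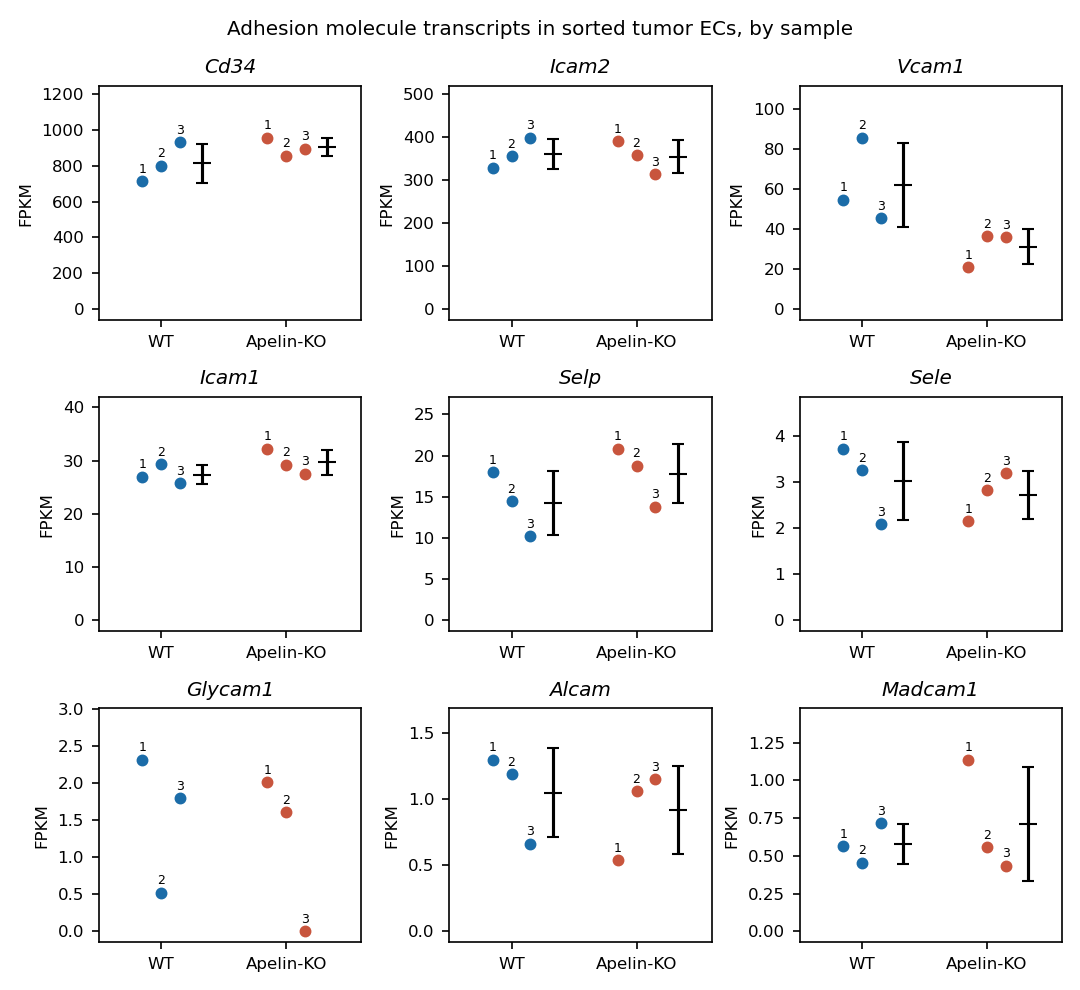
FPKM of each adhesion gene (linear axes, 1 panel per gene) in the 3 WT (blue) and 3 Apelin-KO (red) samples, numbered by replicate, with the mean and SD beside each group except for Glycam1, which was listed at 0 in Apelin-KO 3. The groups overlap in 8 panels, and in the panel of Vcam1 the WT samples lie between 45.6 and 85.9 FPKM and the Apelin-KO samples between 21.2 and 36.5 FPKM.

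The adhesion genes were ordered by their level in the sorted samples. Cd34, which encodes a sialomucin that selectins can bind when it is suitably glycosylated and which also marks vascular endothelium, stood at rank 43 of all symbols by mean FPKM. Icam2 followed at rank 175. Vcam1, Icam1 and Selp were expressed at intermediate levels, with means over the 6 samples of 46.7, 28.5 and 16.0 FPKM. Sele was at 2.88 FPKM, and Glycam1, Alcam and Madcam1 were below it with means of 1.38, 0.982 and 0.645 FPKM. Neighbours in this order were compared within samples by the log2 ratio of their levels, with a two-sided exact sign-flip permutation test whose smallest p with 6 samples is 0.031. Of the 8 neighbouring pairs, 5 kept their order in 6 of 6 samples (exact p = 0.031 each, 0.05 after Benjamini-Hochberg adjustment over the 8 pairs). For 1 of the 5, Sele over Glycam1, this rests on Glycam1 listed at 0 in Apelin-KO 3, with 0.001 FPKM added to both genes. A listed 0 does not by itself show a low level, so that the order of this pair in that sample is not known. Cd34 exceeded Icam2 by 1.26 ± 0.14 (SD, n = 6) on the log2 scale. The other 3 pairs did not differ beyond their spread. Vcam1 was above Icam1 in 5 of 6 samples, the exception being Apelin-KO 1 (exact p = 0.125, adjusted 0.167). Glycam1 and Alcam were not separated (exact p = 0.906), nor were Alcam and Madcam1 (exact p = 0.188, adjusted 0.214). Glycam1 was above Alcam in 4 of 6 samples. The p of this pair depends on the 0.001 FPKM added, which set the log2 ratio in Apelin-KO 3 to -10.2.

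The promoters are shown because NF-kB control of these genes is textbook knowledge and because a factor's letters can be looked for in them. The RefSeq promoter table (GRCm38.p6) held 7 of the 9 genes, all but Vcam1 and Icam2, and the 250 bases before the annotated start were searched on both strands for GGAAANTC, 8 letters that resemble the binding sequence of NF-kB and that were chosen after the sequences had been seen. A match was found in 3 of the 7, Sele, Icam1 and Madcam1, and in 1102 of all 32851 promoters of the same length (3.35%). It began 111 bases before the start of Sele, on the other strand, 153 bases before that of Icam1 and 70 bases before that of Madcam1. Selp, which lies beside Sele on chromosome 1, held none and is printed for comparison, with no more said than that these letters are not in its window. Capitals mark the match. The stretches are chr1:164047984-164048233 (+ strand) for Sele, chr9:21015690-21015939 (+ strand) for Icam1, chr10:79664309-79664558 (+ strand) for Madcam1 and chr1:164115014-164115263 (+ strand) for Selp, each written 5′ to 3′ on the strand of its gene.

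Sele: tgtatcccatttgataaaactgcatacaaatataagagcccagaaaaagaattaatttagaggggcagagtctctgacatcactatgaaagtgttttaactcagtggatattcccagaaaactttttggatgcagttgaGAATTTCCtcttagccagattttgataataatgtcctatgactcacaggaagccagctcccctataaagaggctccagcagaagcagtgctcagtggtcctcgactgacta

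Icam1: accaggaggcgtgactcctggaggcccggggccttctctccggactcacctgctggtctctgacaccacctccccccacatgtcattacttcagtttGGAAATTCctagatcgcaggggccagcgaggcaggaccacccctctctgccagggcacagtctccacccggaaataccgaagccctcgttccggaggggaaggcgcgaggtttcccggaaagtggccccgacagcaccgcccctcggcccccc

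Madcam1: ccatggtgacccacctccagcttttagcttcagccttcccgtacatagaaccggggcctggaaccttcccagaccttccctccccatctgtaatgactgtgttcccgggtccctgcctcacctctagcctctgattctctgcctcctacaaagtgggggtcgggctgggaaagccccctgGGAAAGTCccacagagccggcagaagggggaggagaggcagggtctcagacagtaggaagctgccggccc

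Selp: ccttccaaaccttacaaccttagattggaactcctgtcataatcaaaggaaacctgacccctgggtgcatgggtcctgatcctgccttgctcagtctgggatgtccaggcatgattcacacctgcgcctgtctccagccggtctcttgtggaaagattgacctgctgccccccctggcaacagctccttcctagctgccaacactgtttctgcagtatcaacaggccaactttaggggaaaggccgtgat

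The selectins, which start the rolling of leukocytes, did not differ between the genotypes by the test. Sele encodes E-selectin, which ECs make on cytokine stimulation. In GRCm38 it lies at chr1:164048234-164057677 on the plus strand with 14 exons in its longest coding transcript. Sele was 3.73, 3.27 and 2.09 FPKM in WT 1, 2 and 3 and 2.16, 2.83 and 3.19 FPKM in Apelin-KO 1, 2 and 3. The highest samples were WT 1 and WT 2, the lowest were WT 3 and Apelin-KO 1, and the groups overlapped. The means were 3.03 ± 0.847 and 2.72 ± 0.523 FPKM (SD, n = 3), and the log2 fold change was 0.10 (standard error 0.19, 95% interval -0.35 to 0.54, adjusted p = 0.894 from limma). These values rest on an estimated 51.5 to 102 reads per sample.

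Selp encodes P-selectin, which ECs store in Weibel-Palade bodies and which platelets carry too. It lies at chr1:164115264-164150026 on the plus strand, next to Sele, with 16 exons, and 2 non-coding genes (Gm16548 and Gm16587) overlap it on the minus strand. Selp was 17.97, 14.5 and 10.2 FPKM in WT 1, 2 and 3 and 20.8, 18.8 and 13.8 FPKM in Apelin-KO 1, 2 and 3. The highest values were those of Apelin-KO 1 and 2, but WT 1 and WT 2 lay above Apelin-KO 3. The means were 14.2 ± 3.91 and 17.8 ± 3.62 FPKM (SD, n = 3), and the log2 fold change was -0.32 (standard error 0.23, 95% interval -0.86 to 0.22, adjusted p = 0.687 from limma). Scaled to the endothelial markers it was -0.08, and it was -0.11 without WT 3 and -0.50 without WT 1. The summed level of 11 platelet markers was 8.68 to 11.5 FPKM in WT and 7.49 to 9.02 FPKM in Apelin-KO samples, 2 of the 11 had a mean of at least 1 FPKM (Pf4 and Itga2b), and Gp6 and Treml1 were listed at 0 in all samples. The part of platelet RNA in the level of Selp was not tested. Vwf, which is stored in the same granules, was 236 ± 37.2 FPKM in WT and 296 ± 10.3 FPKM in Apelin-KO samples (SD, n = 3). The ratio of Selp to Vwf lay between 0.0365 and 0.0843 in WT and between 0.0448 and 0.0718 in Apelin-KO samples, so that it overlapped fully.

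Within samples Sele and Selp did not keep a fixed ratio. Sele was 0.208, 0.225 and 0.205 of Selp in WT 1, 2 and 3, and 0.104, 0.151 and 0.231 of it in Apelin-KO 1, 2 and 3. The WT samples were close to each other, and Apelin-KO samples lay on either side of them (two-sided exact permutation p = 0.4).

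Of the immunoglobulin-like molecules, which hold leukocytes by their integrins, Vcam1 was lower in Apelin-KO ECs, at an unadjusted p under 0.05 only, while Icam1 and Icam2 had nearly level means. Vcam1 encodes the ligand of the integrin made of Itga4 and Itgb1, which is found on lymphocytes and monocytes. It lies at chr3:116109949-116129688 on the minus strand with 9 exons, and an antisense gene (Gm43109) overlaps it. Vcam1 was 54.9, 85.9 and 45.6 FPKM in WT 1, 2 and 3 and 21.2, 36.5 and 36.2 FPKM in Apelin-KO 1, 2 and 3. The genotypes did not overlap, with WT 2 the highest and Apelin-KO 1 the lowest. The means were 62.1 ± 21.1 and 31.3 ± 8.72 FPKM (SD, n = 3), the latter being 50.4% of the former. The log2 fold change was 0.96 (standard error 0.29, 95% interval 0.27 to 1.64, unadjusted p = 0.0129 and adjusted p = 0.501 by limma). The exact permutation p was 0.1, the smallest that 3 against 3 samples allow. The size rested in part on the extreme sample of each genotype: it was 0.70 without WT 2 and 0.71 without Apelin-KO 1, each with an unadjusted limma p under 0.05. With each gene's own variance in place of the moderated one, the form of test the study states, Vcam1 had an unadjusted p of 0.0591 in limma and did not pass. Reads were not limiting, with an estimated 640 to 2510 per sample.

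**Figure D2:**
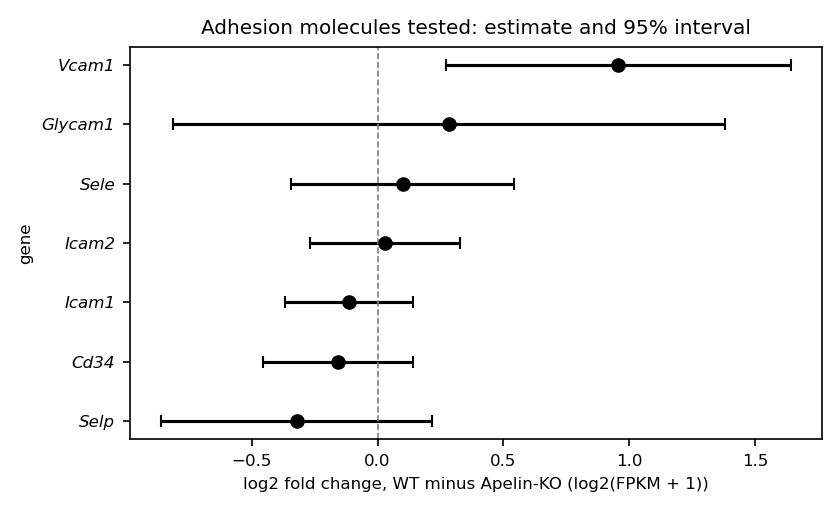
Log2 fold change of the 7 adhesion genes tested (horizontal axis, WT minus Apelin-KO on the log2(FPKM + 1) scale; points are limma estimates, bars are 95% intervals, and the dashed line marks no difference). The interval of Vcam1, 0.27 to 1.64, lies above 0 and those of the other 6 genes include 0, with that of Glycam1 the widest at -0.81 to 1.38.

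Icam1 encodes the ligand of the leukocyte integrins made of Itgal or Itgam with Itgb2. It lies at chr9:21015985-21028817 on the plus strand with 7 exons, and an antisense gene (Gm47079) overlaps it. Icam1 was 27.0, 29.3 and 25.8 FPKM in WT 1, 2 and 3 and 32.3, 29.2 and 27.6 FPKM in Apelin-KO 1, 2 and 3. The 6 values lay close together and the groups overlapped, with WT 2 above 2 of the 3 Apelin-KO samples. The means were 27.4 ± 1.80 and 29.7 ± 2.39 FPKM (SD, n = 3), and the log2 fold change was -0.11 (standard error 0.11, 95% interval -0.37 to 0.14, adjusted p = 0.765 from limma). The interval does not reach the size estimated for Vcam1 in either direction.

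Icam2 encodes a ligand of the integrin of Itgal and Itgb2 that resting ECs display at high level. It lies at chr11:106377656-106388075 on the minus strand. Icam2 was 329, 356 and 399 FPKM in WT 1, 2 and 3 and 391, 358 and 314 FPKM in Apelin-KO 1, 2 and 3. The genotypes covered nearly the same range, from 314 to 399 FPKM. The log2 fold change was 0.03 (standard error 0.13, 95% interval -0.27 to 0.33, adjusted p = 0.962 from limma), the smallest in size among the 7 genes.

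Alcam encodes an adhesion molecule that binds CD6 on T cells. It lies at chr16:52248996-52454074 on the minus strand. Alcam was 1.298, 1.19 and 0.662 FPKM in WT 1, 2 and 3 and 0.536, 1.06 and 1.15 FPKM in Apelin-KO 1, 2 and 3. Its mean of 0.982 FPKM was just below the minimum for the test, and the groups overlapped (exact permutation p = 0.5). As for Sele, WT 1 and WT 2 were the highest samples, Apelin-KO 2 and 3 followed, and WT 3 and Apelin-KO 1 were the lowest. The ratio of Alcam to Sele was accordingly steady, between 0.248 and 0.375 in the 6 samples.

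Madcam1 encodes the ligand of the integrin of Itga4 and Itgb7 by which lymphocytes enter gut tissue. It lies at chr10:79664559-79668537 on the plus strand. Madcam1 was 0.565, 0.455 and 0.716 FPKM in WT 1, 2 and 3 and 1.138, 0.559 and 0.434 FPKM in Apelin-KO 1, 2 and 3. The highest and the lowest sample were both Apelin-KO (exact permutation p = 0.9). An estimated 5.02 to 13 reads per sample stood behind these values, and the gene was below the minimum for the test.

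The sialomucins Cd34 and Glycam1 lay at opposite ends of the range. Cd34 lies at chr1:194938819-194961279 on the plus strand with an antisense gene (Gm16897) that overlaps it. It was 712, 799 and 930 FPKM in WT 1, 2 and 3 and 957, 856 and 895 FPKM in Apelin-KO 1, 2 and 3. The lowest 2 samples were WT 1 and WT 2, while WT 3 lay above Apelin-KO 2 and 3. The log2 fold change was -0.16 (standard error 0.13, 95% interval -0.45 to 0.14, adjusted p = 0.719 from limma), and it was -0.06 without WT 1 and -0.26 without WT 3. Glycam1, which encodes a secreted sialomucin of lymph node venules, lies at chr15:103562759-103565081 on the minus strand. It was 2.32, 0.523 and 1.80 FPKM in WT 1, 2 and 3, 2.01 and 1.61 FPKM in Apelin-KO 1 and 2, and listed at 0 in Apelin-KO 3. These are at most an estimated 10.3 reads in a sample, and neither the 0.28 log2 fold change (standard error 0.46, 95% interval -0.81 to 1.38, adjusted p = 0.873 from limma) nor its direction is resolved at this depth.

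Ratios of adhesion genes within a sample do not depend on how samples are scaled to each other. Of 10 ratios computed after the values had been seen, 3 did not overlap between the genotypes. Each had a two-sided exact permutation p of 0.1, the smallest possible, and 0.333 after Benjamini-Hochberg adjustment over the 10. Those of Vcam1 to Icam1 and to Cd34 rest on the Vcam1 values given above and are not separate results. The share of ratios without overlap among other gene pairs was not computed. Vcam1 was 2.03, 2.93 and 1.77 times Icam1 in WT 1, 2 and 3 and 0.658, 1.25 and 1.31 times Icam1 in Apelin-KO 1, 2 and 3. The ratio of Vcam1 to Cd34 was 0.0490 to 0.108 in WT and 0.0222 to 0.0426 in Apelin-KO samples. Icam2 was 0.462, 0.445 and 0.429 of Cd34 in WT 1, 2 and 3 and 0.409, 0.419 and 0.351 of it in Apelin-KO samples, so that the groups were apart by a narrow margin though neither gene was by itself. The ratio of Vcam1 to Icam2 did overlap, since WT 3 at 0.114 lay just below Apelin-KO 3 at 0.115 (exact permutation p = 0.2).

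Vcam1 is also made by some macrophages and stromal cells, and markers of other cell types were set beside it. Of the 16 hematopoietic markers tested, 15 were higher in WT samples, 8 of them at an unadjusted p under 0.05 and none after adjustment (limma). Over all genes tested 47.5% were higher in WT and 9.42% passed at the unadjusted level, in either direction. In WT 1, 2 and 3 the mean log2(FPKM + 1) over all 20 stood at 4.25, 4.73 and 3.47, against 2.67, 3.69 and 3.401 in Apelin-KO 1, 2 and 3. WT 2 was the highest and Apelin-KO 1 the lowest, as for Vcam1, but Apelin-KO 2 lay above WT 3. Tyrobp, a signaling adaptor of myeloid cells, was picked after the values were seen. It was the only 1 of the 16 whose genotypes did not overlap, which occurred for 6.61% of all genes tested in this direction. Tyrobp had the same order of all 6 samples as Vcam1, with 50.6, 85.4 and 30.6 FPKM in WT and 16.3, 28.1 and 26.4 FPKM in Apelin-KO 1, 2 and 3. S100a8, the 1 marker lower in WT, was highest in Apelin-KO 1 at 2.88 FPKM. Ptprc, which encodes CD45, the antigen the sort selected against, was 3.13, 4.84 and 1.27 FPKM in WT and 0.043, 1.70 and 0.740 FPKM in Apelin-KO samples.

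All 8 fibroblast markers tested were higher in WT samples as well, 4 at an unadjusted p under 0.05 (Dcn, Col3a1, Col1a1 and Pdgfra), which 9.42% of all genes tested passed. On the same scale their mean over all 15 stood at 2.78, 2.63 and 2.14 in WT samples, against 1.96, 2.21 and 2.30 in Apelin-KO samples, with WT 3 below Apelin-KO 2 and 3. Of 9 pericyte markers tested, 2 were higher and 7 lower in WT samples. The endothelial markers were lower in WT. All 15 were lower in WT samples, 5 at an unadjusted p under 0.05 (Tie1, Cdh5, Ptprb, Pecam1 and Vwf), and their mean stood at 7.72, 7.55 and 7.85 in WT samples, against 7.93, 7.91 and 8.005 in Apelin-KO samples. The part of these cell types in the difference of Vcam1 was not tested. With each sample scaled to its endothelial markers, the log2 fold change of Vcam1 was 1.199, and those of Icam1 and Cd34 turned to 0.13 and 0.087, none of the 3 with an adjusted p under 0.05 (limma).

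**Figure D3:**
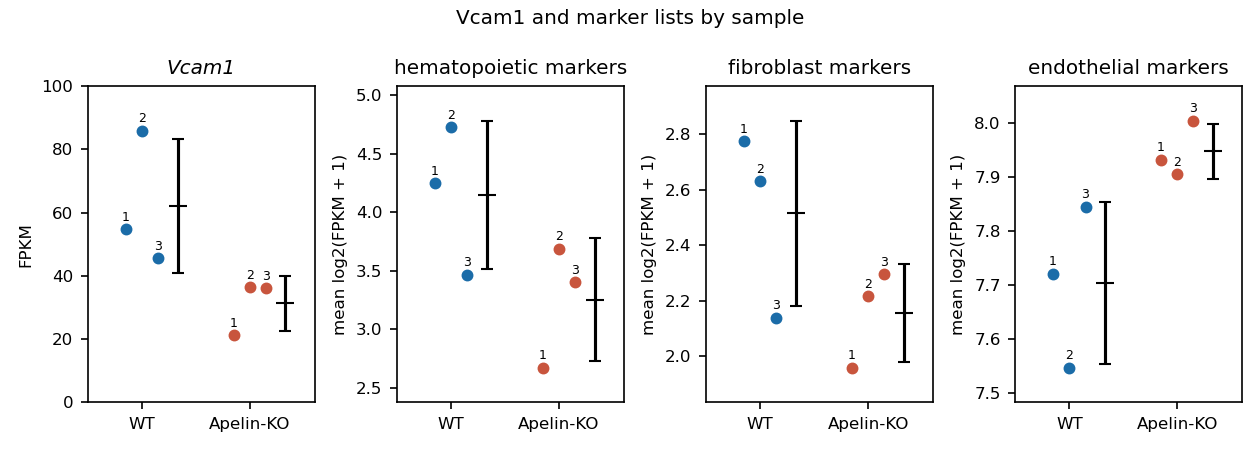
Vcam1 in FPKM (left panel) and the mean log2(FPKM + 1) of 20 hematopoietic, 15 fibroblast and 15 endothelial markers (other panels, whose axes do not start at 0) in the 3 WT (blue) and 3 Apelin-KO (red) samples, numbered by replicate, with the mean and SD beside each group. WT 2 is highest and Apelin-KO 1 lowest for Vcam1 and for the hematopoietic markers, whereas the endothelial markers are higher in every Apelin-KO sample than in any WT sample.

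For Icam1, Vcam1, Sele and Selp, the 3 genes whose levels followed them most closely over the 6 samples were taken by Pearson's r of log2(FPKM + 1) among 10963 candidates. With so many candidates and 6 samples, high values are bound to occur, and they are given as a description. For Vcam1 they were AI662270 (r = 0.997), Osm (r = 0.995), which encodes the cytokine oncostatin M, and Rmrp (r = 0.993). Osm was 2.25, 4.22 and 1.66 FPKM in WT and 0.312, 1.42 and 1.11 FPKM in Apelin-KO 1, 2 and 3, in the same order as Vcam1. For Icam1 they were Aurkb, a mitotic kinase (r = 0.998), Yif1b (r = 0.985) and Cyp4b1 (r = 0.979). Those of Sele were Rab20 (r = 0.997), Prdx5 (r = 0.988) and Ldhb (r = 0.983), and those of Selp were Dnajb14 (r = 0.984), Pigo (r = 0.983) and Qser1 (r = 0.982). No gene was named for more than 1 of them.

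Other genes of adhesion and diapedesis were examined as a list of 24, of which 22 were tested and Nectin2 was not matched by symbol. At an unadjusted p under 0.05, which 9.42% of all genes tested passed, 2 were higher and 4 lower in WT samples. None passed after adjustment, and 16 did not pass at either level (limma). Their median log2 fold change was -0.07. The 2 higher were Lgals1, a galectin, at 457 ± 89.3 against 301 ± 27.8 FPKM (SD, n = 3), and Cd44, the hyaluronan receptor, at 12.6 ± 5.87 against 4.81 ± 1.303 FPKM. In the same direction as these 2 went 15 of 16 hematopoietic and 8 of 8 fibroblast markers, and their part was not tested. The 4 lower were Bcam, Cdh5, Pecam1 and Vwf, 3 of which are also on the list of endothelial markers. Cdh5, which encodes VE-cadherin, was 172, 155 and 214 FPKM in WT 1, 2 and 3 and 219, 232 and 294 FPKM in Apelin-KO 1, 2 and 3, so that the groups did not overlap. Its log2 fold change of -0.46 had a standard error of 0.17 and an adjusted p of 0.512 from limma.

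Enzymes and scaffolds that make ligands of selectins were listed as 17 genes, of which 14 were tested, with a median log2 fold change of -0.11. At an unadjusted p under 0.05, Gcnt1 and Selplg were higher in WT samples and Chst2, C1galt1, Chst1 and B3gnt3 were lower. Over all genes tested 9.42% passed at that level, and none of the 14 passed after adjustment. In these samples 15 of 16 hematopoietic markers were higher and 15 of 15 endothelial markers lower in WT, and their part in these differences was not tested. Chst2, a sulfotransferase that adds sulfate to selectin-binding sugars, was 34.4 ± 4.60 FPKM in WT and 49.0 ± 4.72 FPKM in Apelin-KO ECs (SD, n = 3), with no overlap, at -0.50 on the log2 scale with a standard error of 0.13 (adjusted p = 0.501 from limma). Gcnt1, which builds the branched cores of such sugars, was 4.60 ± 1.22 FPKM in WT and 2.28 ± 0.971 FPKM in Apelin-KO ECs, and Apelin-KO 2 at 3.402 FPKM lay above WT 3 at 3.21 FPKM. Chst4, the sulfotransferase of lymph node venules, was listed at 0 in 5 samples and at 0.059 FPKM in Apelin-KO 1, and Fut7, a fucosyltransferase that finishes selectin ligands, was at most 0.19 FPKM.

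The receptors that leukocytes use to bind the adhesion molecules were listed as 13 genes, and 8 of them were below a mean of 1 FPKM. Of the 5 tested, Cd44, Selplg and Itgam were higher in WT samples at an unadjusted p under 0.05, which 9.42% of all genes tested passed. None was lower, none passed after adjustment (limma), and the median log2 fold change was 1.15. The hematopoietic markers had a median of 1.23, with 15 of 16 higher in WT, and their part was not tested. Selplg, the main ligand of P-selectin, was 2.53, 4.10 and 1.09 FPKM in WT and 0.531, 1.05 and 1.05 FPKM in Apelin-KO samples. Itgam was 6.28, 9.03 and 1.55 FPKM in WT and 0.380, 2.29 and 1.34 FPKM in Apelin-KO samples, with WT 3 below Apelin-KO 2, and it is on the hematopoietic list too. Itgb2, the shared chain of these integrins, had an unadjusted p of 0.052 (limma). Itgb1, which ECs make themselves, was at 619 ± 62.3 and 662 ± 75.2 FPKM (SD, n = 3) and did not pass. The lymphocyte integrin genes Itga4 and Itgb7 and the T-cell gene Cd6 were each below 1 FPKM in every sample, and Itgad was listed at 0 in all samples.

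Genes upstream of the cytokine-induced adhesion molecules were listed next. Of 29 cytokine receptor and NF-kB genes, all tested, only Nfkbie passed at an unadjusted p under 0.05, which 9.42% of all genes tested passed. Nfkbie was at 15.3 ± 1.32 FPKM in WT and 12.4 ± 1.41 FPKM in Apelin-KO ECs (SD, n = 3). None passed after adjustment, and the median log2 fold change was -0.03. The genotypes did not overlap for 3 genes that were higher in WT (Nfkbie, Bcl3 and Nfkb2) and 3 that were lower (Traf2, Ltbr and Rela), with log2 fold changes from -0.27 for Traf2 to 0.33 for Bcl3, beside 6.61% and 7.77% of all genes tested. The log2 fold change was -0.16 (standard error 0.12) for the TNF receptor gene Tnfrsf1a, -0.24 (standard error 0.18) for the interleukin receptor gene Il1r1, -0.15 (standard error 0.10) for Rela and -0.15 (standard error 0.11) for Nfkbia, with adjusted p-values from 0.661 to 0.703 (limma). Of 15 cytoskeletal partners of adhesion molecules, 1 had a positive and 14 a negative log2 fold change, where 47.5% of all genes tested were higher in WT. The endothelial markers, 15 of 15 lower in WT, went in the direction of the 14, and their part was not tested. Ezr, the positive 1, alone passed at an unadjusted p under 0.05, at 7.29 ± 1.04 FPKM in WT and 5.18 ± 1.23 FPKM in Apelin-KO ECs, and the median was -0.12. Msn, a related linker, was at 1130 ± 36.1 and 1174 ± 58.0 FPKM (SD, n = 3).

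Proteases that can shed adhesion molecules from the surface were listed as 7 genes. Of the 5 tested, Adam8 and Mmp9 were higher in WT samples at an unadjusted p under 0.05, which 9.42% of all genes tested passed. None was lower and none passed after adjustment, with a median log2 fold change of 0.03. Adam8, a protease of myeloid cells, was 4.18, 3.0 and 1.38 FPKM in WT and 0.292, 0.599 and 0.542 FPKM in Apelin-KO samples, so that the groups did not overlap (1.32 on the log2 scale with a standard error of 0.27, adjusted p = 0.501 from limma). Mmp9 was 42.2, 36.1 and 18.9 FPKM in WT and 6.08, 19.4 and 16.4 FPKM in Apelin-KO samples. Adam17, which sheds Vcam1 protein, was at 43.9 ± 1.22 and 43.0 ± 2.24 FPKM (SD, n = 3), and Elane was listed at 0 in all samples. Cd44, Selplg, Itgam and Adam8, like Vcam1, were highest in WT 1 or WT 2. They are named because they were higher in WT, so that a WT sample at the top partly follows from that choice. Tyrobp and Ptprc were highest in WT 2 too, whereas S100a8, also a hematopoietic marker, was highest in Apelin-KO 1 at 2.88 FPKM. The part of other cells was not tested.

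**Figure D4:**
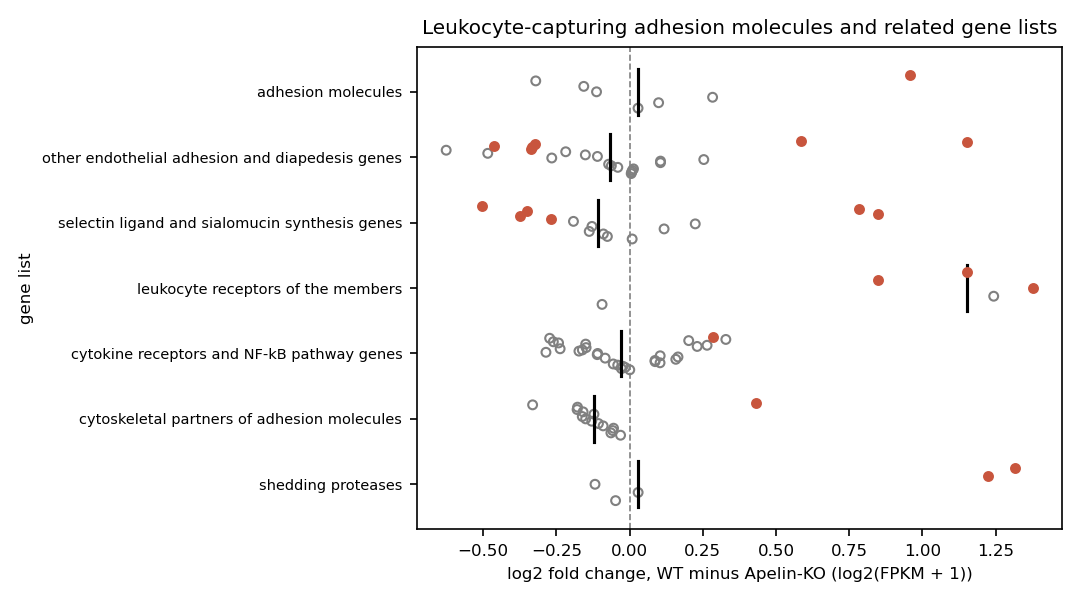
Log2 fold change (horizontal axis, WT minus Apelin-KO on the log2(FPKM + 1) scale) of each tested gene in the adhesion group and the 6 related lists, 1 row per list. Filled red points passed an unadjusted p under 0.05 in limma, open points did not, and the black line is the median of the list, which is farthest from 0 for the 5 leukocyte receptors at 1.15.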

How the data were processed

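RNA-sequencing of tumor ECs from 3 WT and 3 Apelin-KO samples was used. Stranded mRNA libraries were read as single ends of 75 bases and mapped by the authors to mm10. The deposited values are FPKM per gene symbol, which the authors computed with Cufflinks 2.2.1. The submitters' processing notes name bcl2fastq 2.17.1.14, TopHat2 2.1.1, Bowtie2 2.2.4 and SAMtools 1.0. The gene annotation and the strand setting are not given in the sources used here, so reads of a gene and of an antisense gene that overlaps it may not have been told apart.

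The deposited FPKM were taken to log2(FPKM + 1), which understates the change of low genes. Genes whose mean was 1 FPKM or more entered limma 3.58.1 (R 4.3.3, two-sided moderated test, Benjamini-Hochberg adjustment), after a check on simulated data. The study states an unmoderated two-sided test, which was run as an alternative. Exact permutation tests over samples were two-sided. The adhesion genes and all gene lists were chosen with earlier results of these data known. Named genes were all 9 adhesion genes, Apln, up to 4 genes per list by unadjusted p, and the main receptors and inducers; other list genes that the text names were chosen after their values were seen. Alternatives changed the pseudocount, filter, scaling, variance, sample weights, block and samples included.

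Depth was estimated from 3742 genes with a single transcript over 700 bases, assuming 200-base fragments. Between 69.8% and 72.9% of low values came within 0.1 of whole reads at the best depth, so no count test was run. Reads per gene use the longest coding transcript. Positions come from GENCODE M21 (GRCm38). Python 3.11.15, numpy 2.4.6, pandas 2.3.3 and matplotlib 3.10.9 were used.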

Additional observations from a re-analysis of the deposited data

How the results depend on the processing

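No adhesion gene reached an adjusted p under 0.05 in any alternative run. The log2 fold change of Vcam1 kept its direction in all 18 alternatives, between 0.70 and 1.199, with an unadjusted p under 0.05 in 17 of them and adjusted p-values of 0.232 to 0.931 (limma). The exception was each gene's own variance, with an unadjusted p of 0.0591 and 0 adhesion genes passing at that level. Directions turned for several genes that did not pass the test. Scaled to the endothelial markers, Cd34 was 0.087 and Icam1 0.13. Icam2 was -0.0027 with array weights, and with a sample left out it was -0.056 (without Apelin-KO 3) to 0.10, with -0.04 without WT 3. Sele was -0.028 (without WT 1) to 0.28, with -0.02 without Apelin-KO 1, and Glycam1 was -0.21 (without Apelin-KO 3) to 0.62. With a pseudocount of 0.1 or 0.01 FPKM, Glycam1 was 0.997 or 2.03. Of the genes not tested, Alcam was -0.053 without Apelin-KO 1 and -0.0038 with quantile normalization, against 0.098, and Madcam1 was 0.075 without Apelin-KO 1 and 0.085 scaled to the endothelial markers, against -0.097. The cause was not tested.

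Genes with an adjusted p under 0.05 were 2 with a pseudocount of 0.01 FPKM, with no filter, with a filter of 5 FPKM or with an intensity trend, 0 with each gene's own variance, and 0 to 3 when a sample was left out (3 without WT 1, 2 without WT 3 or Apelin-KO 1, 0 without WT 2 or Apelin-KO 2). Genes with an unadjusted p under 0.05 were 2185 when scaled to the endothelial markers and 538 to 1233 when a sample was left out, with 538 without WT 2 and 665 without WT 1. Adhesion genes with no overlap between the groups numbered 1 to 4 when a sample was left out: 4 without WT 3, 2 without WT 2 and 2 without Apelin-KO 3. The share of all genes tested with no overlap, 14.4% with all samples, was then 30.0%, 20.2% and 22.8%. Over the related gene lists, 9 genes were higher and 8 lower in WT at an unadjusted p under 0.05, beside 567 and 466 of all 10964 genes tested. With a sample left out, 3 to 10 were higher (3 without WT 1 or WT 2, 4 without Apelin-KO 3, 5 without Apelin-KO 1) and 2 to 10 lower (2 without WT 1, 3 without WT 2 or Apelin-KO 3).

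Deviations of same-numbered samples from their group means were weakly correlated (r = -0.14, 0.21 and -0.02 for numbers 1, 2 and 3). These 3 values cannot show whether samples were handled in pairs, and the labels do not say so. Selp fell from number 1 to number 3 in both genotypes. With the replicate block, 2 adhesion genes had an unadjusted p under 0.05, Vcam1 at 0.00861 and Selp at 0.0371 (limma), with 893 genes in all and 1 after adjustment. Scaling to Gapdh was not run, since Gapdh was listed at 0 in WT 2 and WT 3. With 3 samples per genotype and few reads, differences of Glycam1, Madcam1, Alcam and Sele smaller than their intervals or spread were not detectable.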

Other observations

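Markers of specialised vessels were looked at beside the adhesion genes. Of 7 markers of high endothelial venules, the vessels by which lymphocytes enter lymph nodes, 4 had a mean of at least 1 FPKM. Gcnt1 alone passed at an unadjusted p under 0.05, which 9.42% of all genes tested passed. Enpp2, which encodes autotaxin, was 4.98 FPKM on average in WT and 4.30 FPKM in Apelin-KO ECs. Ccl21a, a chemokine gene of such venules and of lymphatic vessels, was 39.1 FPKM in Apelin-KO 2 and at most 0.484 FPKM in the other 5 samples. Lymphatic endothelial genes were present in all samples and none of the 7 listed passed at an unadjusted p under 0.05 (limma). Lyve1 was 84.8, 24.0 and 29.6 FPKM in WT 1, 2 and 3 and 20.4, 43.6 and 68.2 FPKM in Apelin-KO 1, 2 and 3, and Prox1 was 17.7, 7.81 and 8.83 FPKM and 6.08, 9.21 and 7.38 FPKM. WT 1, the sample with the highest Lyve1 and Prox1, was also that with the highest Sele. The other samples did not follow: WT 2, the next highest for Sele at 3.27 FPKM, was above only Apelin-KO 1 for Lyve1.

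Of 15 pericyte markers, 9 were tested, 2 of them higher (Cspg4 and Tagln) and 7 lower in WT. Only Ndufa4l2 passed at an unadjusted p under 0.05, beside 9.42% of all genes tested. It was 1.19 FPKM on average in WT and 2.49 FPKM in Apelin-KO samples. The mean log2(FPKM + 1) of the 15 markers was 1.93 to 2.04 in WT and 2.14 to 2.21 in Apelin-KO samples.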
